A study of Mus musculus with 8 samples.

Results

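The genes of GABA-A receptor subunits and of ionotropic glutamate receptor subunits were examined in RNA from mouse hypothalamus. A list of 32 such genes, 15 of GABA-A and 17 of ionotropic glutamate receptors, was matched by Ensembl identifier to the 55890 genes of the count table, and all 32 were found. The list does not hold every gene of these families, and genes outside it were not analysed here. Of the 32 genes, 29 passed the filter on low counts and were tested, and Gabra6, Gabrp and Gabrr1 did not pass. Those 29 are called tested subunit genes below.

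Hypothalami came from female mice at 16 weeks of age, and the RNA was sequenced as 8 pools of 2 animals each, 4 of POMC-C451Af/f mice and 4 of controls. POMC-C451Af/f mice carry a POMC-Cre transgene and floxed alleles of Esr1, the gene of estrogen receptor alpha, designed to remove the membrane-initiated signaling of this receptor in POMC neurons and not in every hypothalamic cell. The labels give the controls as wildtype, whereas the methods of the study describe homozygous C451Af/f littermates. Sequencing depth was similar, with 36095253 to 40498166 estimated counts in POMC-C451Af/f pools and 37841365 to 48942116 in control pools. Replicate numbers only name the pools, and values of single pools are listed in the order of these numbers. Gene counts do not separate the mutated from the intact Esr1 transcript, whose level was between 9.997 and 12.2 CPM (counts per 1000000 of the TMM-scaled library size) in the POMC-C451Af/f pools and between 11.6 and 16.0 CPM in the control pools.

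The tissue label was checked against 15 genes of hypothalamic nuclei, of which 14 passed the filter on low counts. Pmch, the precursor of melanin-concentrating hormone and the most abundant of them, was between 312 and 631 CPM, whereas Kiss1 was at 0 counts in 6 pools. Control replicate 1 stood apart from the other pools. It had the lowest mean of a list of thalamic genes, 3.13 on the log2(CPM + 0.5) scale, and the highest mean of the hypothalamic list, 5.14. It also held the most pituitary RNA, with Prl, the prolactin gene, at 1013 CPM against 7.83 to 163 CPM in the other pools. Values without this pool are given where it carries a result.

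GABA-A receptors are pentameric chloride channels opened by GABA, the main inhibitory transmitter of the hypothalamus, and their alpha, beta and further subunits set where the receptor sits and how it responds to GABA, neurosteroids and drugs. Receptors with a gamma subunit mostly serve synapses, whereas receptors with the delta subunit lie outside synapses and carry a tonic current. Ionotropic glutamate receptors are tetrameric cation channels of the AMPA, NMDA, kainate and delta classes, which carry fast excitation, calcium entry linked to plasticity, presynaptic modulation and synapse organization, respectively. In bulk tissue, fewer cells of a type and less RNA per cell cannot be told apart.

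Levels were compared between genes as CPM per kb of the longest protein-coding transcript. Grin1, the subunit that every NMDA receptor contains, was the highest at 105 CPM per kb ± 2.31 (SD, n = 8 pools), although by exon union length it came second to Gria1. Gria1, an AMPA subunit, followed at 85.8 CPM per kb ± 2.24, and then came the kainate subunit Grik5 at 49.5 CPM per kb ± 1.81. Gabra3, which encodes the alpha3 subunit, led the GABA-A genes at 36.3 CPM per kb ± 1.42. The ranges of these 4 genes over the 8 pools did not overlap. From Gria2, at 26.5 CPM per kb, down to Grin2c, at 9.33 CPM per kb, the range of each gene overlapped that of the next in order, so no step between neighbours was larger than the spread over pools. Over all 32 genes, the ranges of 22 of 31 neighbouring pairs overlapped.

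**Figure D1:**
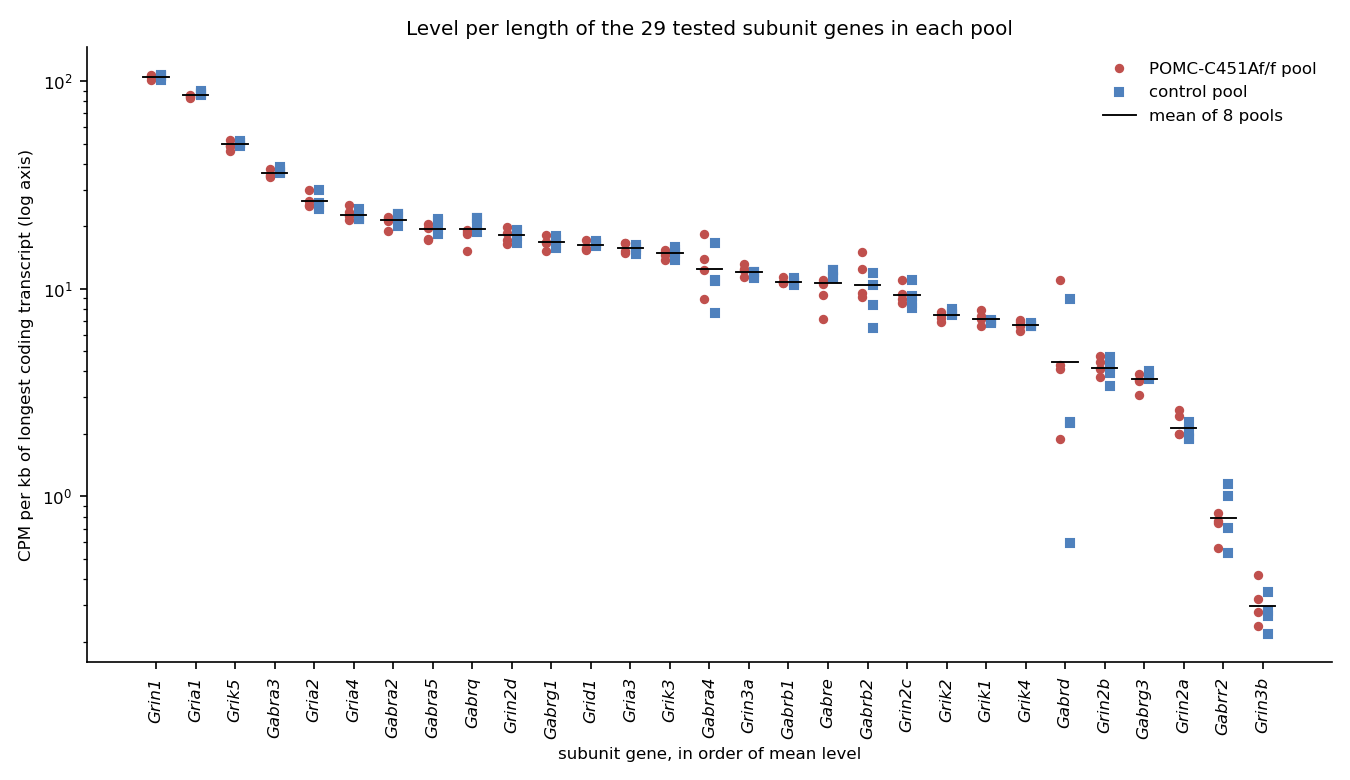
Level of each of the 29 tested subunit genes as CPM per kb of the longest coding transcript on a log axis, with 1 point for each POMC-C451Af/f pool (circles) and control pool (squares) and a line at the mean of 8 pools. Grin1 and Gria1 lead with tightly grouped pools, whereas the points of Gabrd run from 0.594 to 11.04 CPM per kb.

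The coefficient of variation over the 8 pools was 2.21% for Grin1, 2.61% for Gria1 and 3.12% for Gabrb1. Its median over the 29 tested subunit genes was 6.38%, beside 7.57% over all 18637 genes tested. The highest values were 83.0% for Gabrd and 29.3% for Gabra4. Of the GABA-A genes tested the median was 9.93% (12 genes), and of the glutamate receptor genes 5.37% (17 genes).

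Alpha subunits, with the beta subunits, form the GABA binding site. Among the 5 listed alpha genes, Gabra3 held 40.4% ± 1.07 (SD, n = 8) of the summed level per length, and this share stayed between 39.0% and 41.9%. Gabra2 held 24.0% ± 1.65 and Gabra5, known for extrasynaptic receptors of the hippocampus, 21.7% ± 2.06. Gabra4 was the variable member of the class. Its share was 13.8%, 10.4%, 20.5% and 15.4% in POMC-C451Af/f replicates 1 to 4 and 8.66%, 18.2%, 11.99% and 11.9% in control replicates 1 to 4. The groups overlapped, and POMC-C451Af/f replicate 3 and control replicate 2 were the highest. By the longest coding transcript, Gabra4 stood at 0.335 to 0.969 of the level of Gabra2. This ratio rests on the length used. By median length of the coding transcripts, the mean share of Gabra4 was 18.94% and that of Gabra2 19.34%. Gabra4 then stood at rank 12 of all listed genes, above Gabra5 at rank 14.

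Gabra6 encodes the alpha6 subunit, which marks cerebellar granule cells. It had 14 estimated counts in POMC-C451Af/f replicate 1 and between 0 and 4 in the other 7 pools. No fold is given, because most pools were at or near the floor of 3 counts. In the same pool Cbln3 and Fat2, further genes of cerebellar granule cells, were also highest, at 1.65 CPM against 0.733 to 1.02 CPM and at 0.518 CPM against 0.0265 to 0.242 CPM elsewhere. Over the 6 cerebellar genes listed, of which 4 passed the filter, the summed level in that pool was 23.8 CPM. It was 17.5 to 23.8 CPM in the others, with Car8 the most abundant. The remaining genes of this list were not highest in POMC-C451Af/f replicate 1. Cdh15 was at 4.345 CPM there against 4.581 CPM in control replicate 3. Neurod1 was at 3.605 CPM against 3.622 CPM in POMC-C451Af/f replicate 3. Whether cerebellar tissue contributed to the Gabra6 counts was not tested.

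Of the 2 listed beta genes, Gabrb1 was even and Gabrb2 was not. Gabrb1 was at 146, 148, 146 and 156 CPM in POMC-C451Af/f replicates 1 to 4 and at 143, 146, 149 and 156 CPM in the control pools. Gabrb2 was at 37.9, 36.4, 49.8 and 59.9 CPM and at 25.8, 41.5, 33.2 and 47.7 CPM in the same pools. Gabrb2 was lowest in control replicate 1 and highest in POMC-C451Af/f replicate 4, and the groups overlapped. By the longest coding transcript, the share of Gabrb1 in the summed level of both genes was 51.7% ± 5.98 (SD, n = 8). It was between 43.0% and 61.8%, so on this length which of the pair led differed between pools. Without control replicate 1, Gabrb2 had the higher mean level on this length, although the mean share of Gabrb2 was then 49.8%. This balance rests on the length used. The mean share of Gabrb1 over all pools was 62.7% by exon union length and 58.25% by median length of the coding transcripts.

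Gamma subunits anchor receptors at synapses and take part in the benzodiazepine site. Between the 2 listed gamma genes, Gabrg1 held 81.9% ± 0.817 (SD, n = 8) and Gabrg3 the rest. This was the steadiest division of the GABA-A classes, with Gabrg1 between 80.4% and 83.2%.

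The delta, epsilon and theta subunits can take the place of a gamma subunit. Epsilon and theta, encoded by Gabre and Gabrq, are known from few brain regions, the hypothalamus and brainstem among them. Per length, Gabrq was at 19.3 CPM per kb ± 2.15 (SD, n = 8) and Gabre at 10.7 CPM per kb ± 1.71, and the ratio of Gabre to Gabrq was 0.471 to 0.609. Gabrd, which encodes the delta subunit, was lower on average but spanned the widest range of the tested subunit genes, as described below. Its share of the delta, epsilon, theta and pi class went from 1.71% in control replicate 1 to 33.0% in POMC-C451Af/f replicate 3, and without control replicate 1 the lowest share was 5.96%. Gabrp, whose pi subunit is known from reproductive tissues, had between 0 and 2 estimated counts in each pool, under the floor of 3 counts, and was not detectable at this depth. The rho genes, best known from the retina, were low. Gabrr2 was at 1.03 to 2.23 CPM, and Gabrr1 had 4 to 15.7 estimated counts per pool.

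AMPA subunits carry the fast excitatory current. Gria1 held 57.0% ± 1.38 (SD, n = 8) of the summed level per length of the 4 AMPA genes, and Gria2, whose edited subunit blocks calcium entry, held 17.5% ± 1.02. Gria4 held 15.1% and Gria3 10.4%. Which of Gria4 and Gria3 was higher rests on the length used. By median length of the coding transcripts, Gria3 stood at rank 7 of all listed genes and Gria4 at rank 10. On the main length these ranks were 13 and 6. The level of Gria1 was 2.85 to 3.55 times that of Gria2 per length.

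NMDA receptors join Grin1 with Grin2 subunits, which bind glutamate, or with Grin3 subunits, which bind glycine. Grin1 held 69.5% ± 1.16 (SD, n = 8) of the class. Grin2d, typical of diencephalon and brainstem, was the highest of the Grin2 genes at 18.1 CPM per kb ± 1.27, followed by Grin2c at 9.33 CPM per kb ± 1.11. Grin2b and Grin2a were at 4.16 and 2.14 CPM per kb. This order rests on the length used, since the longest Grin2b transcript is 24060 bases. With the median length of its coding transcripts, Grin2b stood at rank 3 of the 32 genes instead of rank 25, and its share of the class was 28.4% instead of 2.75%. Differences between pools do not depend on length, and the ratio of Grin2a to Grin2b was steady over pools, at 0.484 to 0.584 on the main length. Grin3a was at 12.01 CPM per kb ± 0.644, and Grin3b, known from motor neurons, was at 0.296 CPM per kb.

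Grik4 and Grik5 encode high-affinity kainate subunits that work only together with Grik1, Grik2 or Grik3 subunits. Grik5 held 57.8% ± 1.04 (SD, n = 8) of the kainate class and Grik3 17.3% ± 0.767. Grik2, Grik1 and Grik4 each held between 7.84% and 8.76% on average. Second place in the class rests on the length used. By median length of the coding transcripts, Grik2 stood at rank 9 of all listed genes and Grik3 at rank 19. On the main length these ranks were 21 and 14. Grid1, the only listed gene of the delta class, which organizes synapses through cerebellins, was at 16.2 CPM per kb ± 0.697. The 8 classes with several listed members kept the same leading gene under each of the 3 transcript lengths used.

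**Figure D2:**
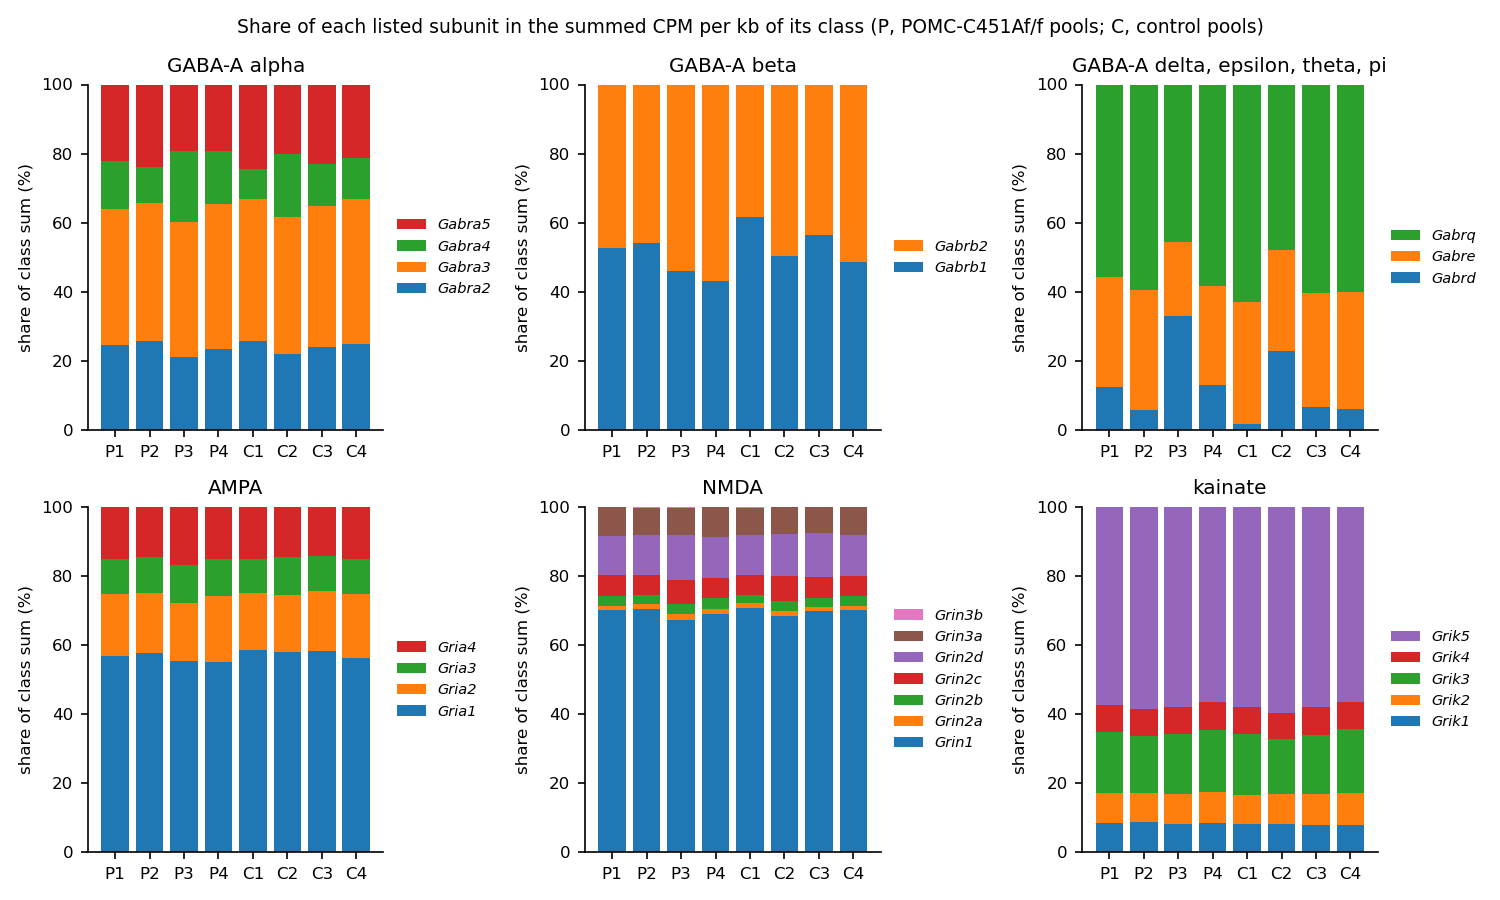
Share (%) of each listed subunit in the summed CPM per kb of its class in each of 4 POMC-C451Af/f pools (P1 to P4) and 4 control pools (C1 to C4), as stacked bars. The AMPA, NMDA and kainate classes look alike in all 8 pools, whereas Gabra4, Gabrb2 and Gabrd take shares that differ between pools of the same genotype.

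The genotypes were then compared over all genes with edgeR's quasi-likelihood test and Benjamini-Hochberg adjustment, a gene being called at an adjusted p under 0.05 with an absolute log2 fold change over 0.5. Of the 29 tested subunit genes, 0 were called by edgeR and 0 by DESeq2, against 4 of all 18637 genes tested by edgeR (0.0215%) and 12 by DESeq2. An unadjusted p under 0.05 was reached by 2 of the 29 with either tool, Gabre and Gabrq. Over all genes tested this held for 950 by edgeR (5.1%) and 906 by DESeq2. The median log2 fold change of POMC-C451Af/f over control was 0.00 over the 29 and 0.00 over all genes tested, and 14 of the 29 were positive. The absolute log2 fold change was under 0.2 for 23 of the 29, beside 15848 of all 18637 genes tested. Grin1 and Gabrb1, both abundant and even over pools, had log2 fold changes of 0.00 ± 0.03 (SE) and 0.00 ± 0.04 (SE).

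Gabre, the epsilon subunit gene, was lower in the POMC-C451Af/f pools. Its level was 45.5, 47.3, 30.9 and 40.3 CPM in POMC-C451Af/f replicates 1 to 4 and 52.9, 49.1, 48.3 and 53.2 CPM in the control pools. Each POMC-C451Af/f pool was under each control pool, by a small margin for replicate 2, and replicate 3 was the lowest. The log2 fold change was -0.31 ± 0.11 (SE), with an unadjusted p of 0.016 and a Benjamini-Hochberg adjusted p of 0.88 by edgeR's quasi-likelihood test, so the difference did not pass. Groups that do not overlap were found for 2 of the 29 tested subunit genes, Gabre and Gria1, beside 519 of all genes tested (2.78%). For Gria1 the gap was narrow, with 458 to 474 CPM in POMC-C451Af/f pools and 474 to 498 CPM in control pools.

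Gabrq, the theta subunit gene, lies on the X chromosome near Gabre. Its level was 91.2, 93.0, 75.4 and 95.0 CPM in POMC-C451Af/f replicates 1 to 4 and 108, 92.6, 101 and 108 CPM in the control pools. POMC-C451Af/f replicate 3 was again the lowest, and control replicate 2 lay among the POMC-C451Af/f pools. The log2 fold change was -0.21 ± 0.07 (SE), with an unadjusted p of 0.018 and the same adjusted p of 0.88 by the quasi-likelihood test of edgeR and Benjamini-Hochberg adjustment. Gabra3, which lies between Gabre and Gabrq, had a log2 fold change of -0.06 ± 0.04 (SE). Both Gabre and Gabrq kept an unadjusted p under 0.05 when any 1 pool was left out, with -0.29 and -0.18 without control replicate 1. The number of such genes among the 29 was then 2 to 5, with 5 without POMC-C451Af/f replicate 2, without POMC-C451Af/f replicate 4 and without control replicate 2.

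The start regions of Gabre and Gabrq are shown because these genes had the lowest p-values of the list. Each window holds 300 bases around a RefSeq start on GRCm38, with CG dinucleotides in capitals. The window of Gabre is at chrX:72274672-72274971, minus strand, and that of Gabrq at chrX:72824928-72825227, plus strand.
Gabre: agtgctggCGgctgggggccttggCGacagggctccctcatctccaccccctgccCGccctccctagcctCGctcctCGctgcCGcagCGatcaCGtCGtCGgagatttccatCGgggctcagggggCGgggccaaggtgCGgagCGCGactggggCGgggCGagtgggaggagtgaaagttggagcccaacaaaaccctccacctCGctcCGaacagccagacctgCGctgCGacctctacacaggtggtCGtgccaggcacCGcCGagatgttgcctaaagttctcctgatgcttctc
Gabrq: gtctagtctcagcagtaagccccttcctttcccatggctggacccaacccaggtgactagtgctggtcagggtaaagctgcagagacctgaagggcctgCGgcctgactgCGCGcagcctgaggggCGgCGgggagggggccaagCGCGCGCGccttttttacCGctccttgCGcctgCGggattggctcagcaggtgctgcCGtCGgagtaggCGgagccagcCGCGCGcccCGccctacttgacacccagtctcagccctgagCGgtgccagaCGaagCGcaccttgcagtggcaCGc
Both windows are rich in CG, with 24 in Gabre and 23 in Gabrq, beside a median of 7 over 32851 windows of the same length (25th to 75th percentile, 3 to 20). Neither holds the letters TATAAA on either strand, which 13.6% of all windows hold. Windows of other subunit genes were as rich in CG, with 33 in Grin1 and 50 in Grik3, so this does not set Gabre and Gabrq apart.

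**Figure D3:**
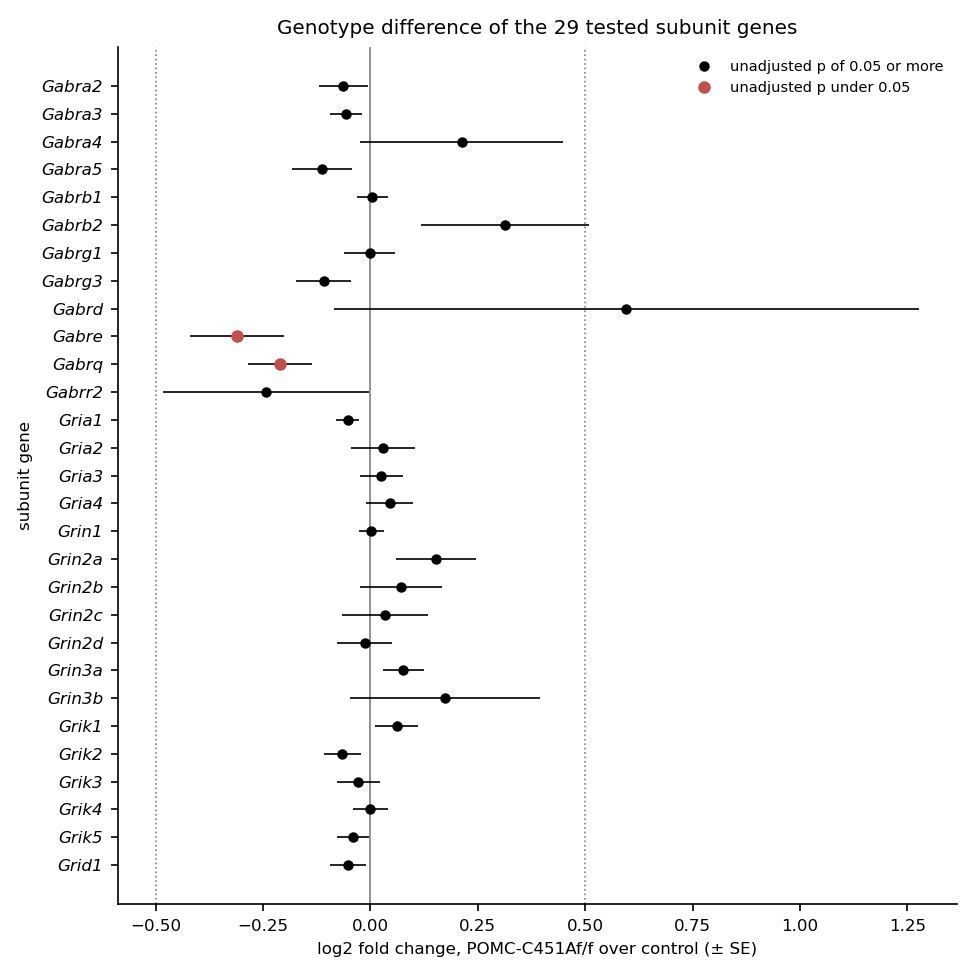
Log2 fold change of POMC-C451Af/f over control with its SE for the 29 tested subunit genes, from 4 pools a group, with dotted lines at the call threshold of 0.5 in each direction. Gabre and Gabrq, drawn in red, lie at -0.31 and -0.21, and Gabrd has the widest error, 0.60 ± 0.68.

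Genes listed for a neighbouring brain region had higher mean levels in the POMC-C451Af/f pools, although none passed the test by edgeR. Of 10 genes of midbrain dopaminergic neurons, all 10 were detected, 0 were called by edgeR, and 10 were higher in POMC-C451Af/f pools at an unadjusted p under 0.05, with a median log2 fold change of 0.71. Their summed level was 376, 286, 582 and 435 CPM in POMC-C451Af/f replicates 1 to 4 and 243, 242, 289.7 and 314 CPM in the control pools. Aldh1a1 was the most abundant of them. Slc6a3, the dopamine transporter gene, was at 12.2 to 90 CPM in POMC-C451Af/f pools and 4.24 to 26.4 CPM in control pools. Whether this RNA came from midbrain or from dopaminergic neurons of the hypothalamus itself was not tested. Th, another gene of this list, is among those that the study lists as differentially expressed by DESeq2, higher in POMC-C451Af/f mice. With the mean of this list as a covariate, the log2 fold change of Gabre was -0.11 with an unadjusted p of 0.38 by edgeR, and that of Gabrq -0.15 with an unadjusted p of 0.18. In these fits Gabre changed by -0.28 ± 0.11 (SE) in log2 for each log2 unit of the list mean, with an unadjusted p of 0.023 by edgeR. For Gabrq this was -0.08 ± 0.09 (SE), with an unadjusted p of 0.38, so Gabrq followed the list less clearly than Gabre. Neither was called. Since the list itself differed between the groups, the genotype and the list mean cannot be told apart for these genes.

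Whether a subunit gene tracked the content of the dissection was tested within genotypes, by adding the mean log2(CPM + 0.5) of a marker list to the edgeR model as a slope. A slope is the log2 change of a gene for each log2 unit of the list mean. Of the 6 lists used in this way, that of 9 thalamic genes had the widest range over pools. Its mean was 4.57, 3.79, 5.25 and 4.68 in POMC-C451Af/f replicates 1 to 4 and 3.13, 5.10, 4.11 and 4.10 in control replicates 1 to 4. All 9 genes were detected in every pool and passed the filter, and their summed level was between 132 CPM in control replicate 1 and 507 CPM in POMC-C451Af/f replicate 3, with Ntng1 the most abundant. None of the 9 had an unadjusted p under 0.05 between genotypes by edgeR, and 0 were called, although all 9 had a positive log2 fold change, with a median of 0.27.

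With the thalamus list mean, 4 of the 29 tested subunit genes were called at an adjusted p under 0.05, all with a positive slope, beside 367 of all genes tested (1.97%). They were Gabrd, Gabra4, Grin2b and Grin2c. The alpha4 and delta subunits are known to form the extrasynaptic GABA-A receptors of thalamic relay neurons. A further 7 of the 29 had an unadjusted p under 0.05 without being called, 3 of them positive (Gabrb2, Grin2a and Grin2d) and 4 negative (Gabra2, Gabra5, Gabre and Gabrq). With the called genes this made 11 of 29 at an unadjusted p under 0.05, beside 2608 of all 18637. The median slope was 0.00 over the 29 and 0.00 over all genes tested.

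Gabrd followed the list mean most steeply. Its level was 7.88, 3.63, 21.2 and 8.29 CPM in POMC-C451Af/f replicates 1 to 4 and 1.14, 17.1, 4.38 and 4.34 CPM in the control pools. The 8 pools stood in the same order for Gabrd as for the list mean, from control replicate 1 to POMC-C451Af/f replicate 3, and the highest pool had 18.6 times the level of the lowest. Control replicate 1 carries much of this range, and the next lowest pool was POMC-C451Af/f replicate 2. The slope was 1.88 ± 0.09 (SE), with a Benjamini-Hochberg adjusted p of 1.3e-06 by edgeR's quasi-likelihood test. Of the list's own genes, which make up the mean, Tnnt1 and Prkcd had the slopes nearest to this, Tnnt1 with 1.79 ± 0.14 (SE) and Prkcd with 1.68 ± 0.10 (SE). Between genotypes Gabrd differed by a log2 fold change of 0.60 ± 0.68 (SE), less than the spread between pools, and without control replicate 2 this value was 1.63 with an unadjusted p of 0.021 by edgeR, against -0.04 without POMC-C451Af/f replicate 3 and 0.25 without control replicate 1. With the thalamus list mean as a covariate, an alternative chosen after the data were seen, it was 0.03.

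Gabra4 also stood in the same order as the list mean in all 8 pools. Its level was 50.4, 36.8, 75.5 and 57.0 CPM in POMC-C451Af/f replicates 1 to 4 and 31.6, 67.8, 45.1 and 44.8 CPM in the control pools. The slope was 0.61 ± 0.04 (SE), a shallower one than that of Gabrd, with an adjusted p of 1.2e-05 by edgeR's quasi-likelihood test and Benjamini-Hochberg adjustment. The genotype difference of Gabra4 was a log2 fold change of 0.21 ± 0.24 (SE), and -0.06 with the thalamus list mean as a covariate.

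**Figure D4:**
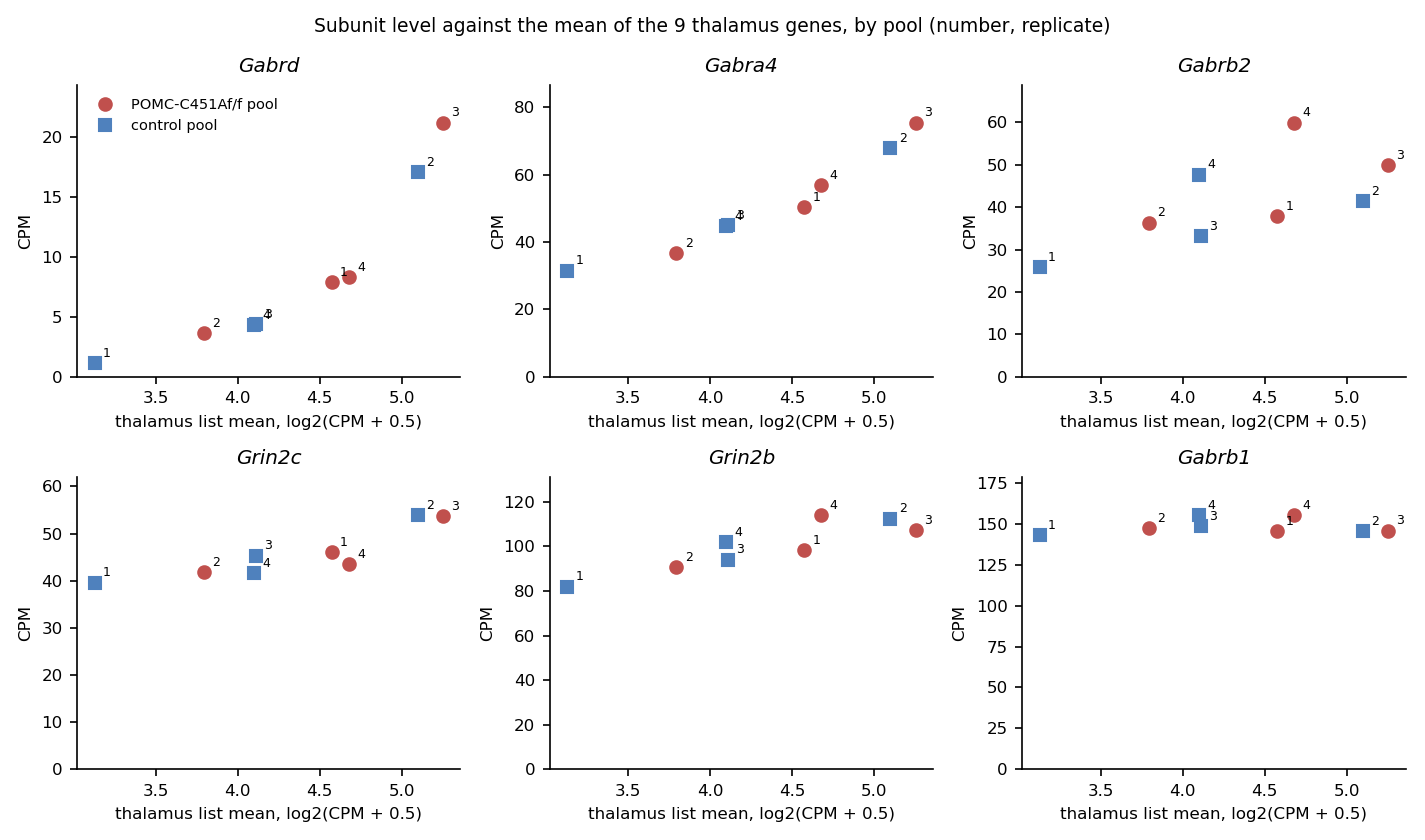
Level (CPM) of 6 subunit genes against the mean log2(CPM + 0.5) of the 9 thalamus genes, 1 point for each pool with its replicate number, circles for POMC-C451Af/f and squares for control. Gabrd and Gabra4 rise with the list mean from control replicate 1 to POMC-C451Af/f replicate 3, Gabrb2, Grin2c and Grin2b with more scatter, and Gabrb1 stays between 143 and 156 CPM.

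The NMDA genes Grin2c and Grin2b moved less. Grin2c was at 46.0, 41.8, 53.6 and 43.5 CPM in POMC-C451Af/f replicates 1 to 4 and at 39.6, 54.0, 45.3 and 41.6 CPM in the control pools. Grin2b was at 98.4, 90.6, 107 and 114 CPM and at 82.0, 112, 94.1 and 102 CPM in the same pools. For both, control replicate 1 was the lowest, and the groups overlapped. Their slopes were 0.23 ± 0.04 (SE) and 0.21 ± 0.04 (SE), with adjusted p of 0.014 and 0.025 by edgeR's quasi-likelihood test and Benjamini-Hochberg adjustment. Gabrb2, whose beta2 subunit is found with alpha4 and delta in the thalamus, had a slope of 0.34 ± 0.13 (SE) and was not called (adjusted p of 0.24 by the same edgeR test with Benjamini-Hochberg adjustment).

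Gabrd and Gabra4 remained called when any 1 of the 8 pools was left out, with slopes of 1.81 to 2.02 and 0.58 to 0.67, and also without the 2 pools farthest from the median list mean, control replicate 1 and POMC-C451Af/f replicate 3. Grin2b and Grin2c each remained called in 4 of these 8 fits, and Grin2b was not called when the midbrain list mean was a further covariate, an alternative added after the data were seen. The number of called subunit genes was 2 without POMC-C451Af/f replicate 2, without control replicate 1 or without control replicate 2. It was also 2 without the 2 farthest pools, an alternative chosen after seeing the data. The slopes do not separate thalamic cells in the dissection from another source that varies along with them, and this was not tested.

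Gabra4 and Gabrb1 start head to head on chromosome 5, in a cluster that also holds Gabrg1 and Gabra2, and their annotated ends overlap by 196 bases. Over the pools the highest level was 2.39 times the lowest, that of control replicate 1, for Gabra4 and 1.09 times for Gabrb1, whose slope on the thalamus list mean was 0.01 ± 0.03 (SE). The start regions of this pair are shown because genes with adjoining starts differed in how they followed the list. The window of Gabra4 is at chr5:71658259-71658558, minus strand, and that of the upstream of 2 RefSeq starts of Gabrb1 at chr5:71657671-71657970, plus strand, with CG dinucleotides in capitals.
Gabra4: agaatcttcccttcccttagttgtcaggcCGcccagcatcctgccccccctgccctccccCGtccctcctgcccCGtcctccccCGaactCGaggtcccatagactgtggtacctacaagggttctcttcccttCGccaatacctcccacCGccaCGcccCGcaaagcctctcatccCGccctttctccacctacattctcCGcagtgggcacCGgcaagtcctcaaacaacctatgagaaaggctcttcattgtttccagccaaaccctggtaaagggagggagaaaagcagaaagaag
Gabrb1: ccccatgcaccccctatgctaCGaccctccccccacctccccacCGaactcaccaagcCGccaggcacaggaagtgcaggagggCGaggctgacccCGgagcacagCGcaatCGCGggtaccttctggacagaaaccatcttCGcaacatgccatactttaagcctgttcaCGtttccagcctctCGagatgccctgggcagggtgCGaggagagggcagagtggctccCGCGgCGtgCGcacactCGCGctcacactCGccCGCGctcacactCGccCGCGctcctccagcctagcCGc
This Gabrb1 window ends before the annotated start of the gene at base 71658113. The bases after its RefSeq start were not found in an annotated Gabrb1 transcript, whereas those of the second RefSeq start were. The Gabra4 window holds 12 CG and the Gabrb1 window 25, while the second Gabrb1 start has 9. The letters TCAAAG, the core of sites bound by TCF and LEF factors such as the products of the thalamic genes Tcf7l2 and Lef1, are absent from both strands of these windows and present in 16.0% of all windows. Among the subunit genes they are present in windows of Gabra3, Gabrb2 and Gabrp. RefSeq start windows were matched for 24 of the 32 genes; Gabrd is not among them.

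The lists of midbrain, cortex and hippocampus, and striatum gave 0 calls among the subunit genes in the model with genotype, the default filter and all 8 pools. With the midbrain dopaminergic list mean edgeR called 0 of the 29, beside 8 of all genes tested (0.0429%), and 4 had an unadjusted p under 0.05, beside 1985 of all 18637. Without control replicate 2, however, 2 were called, Gabra4 and Gabrd. With the list of 7 excitatory genes of cortex and hippocampus, led by Slc17a7, 0 of the 29 were called by edgeR, beside 38 of all genes tested (0.204%), and 12 had an unadjusted p under 0.05, beside 2148 of all 18637. The number called was 3 without control replicate 1, 1 without control replicate 3 and 3 without control replicate 4, in each case with Gabra4. It was also 3 (Gabra4, Gabrd and Grin2a) with all pools when genotype was left out of the model or 10 counts were required in every pool. The mean of this list was between 2.02 and 2.52 over the pools, and Slc17a7 itself was at 6.29 to 52.6 CPM. Slc17a7 was also called along the thalamus list, with a slope of 1.54, whereas the other 5 tested genes of this list had slopes between -0.19 and 0.12 there and were not called, so this mean is no clear measure of cortical content. Emx1 of this list did not pass the filter. With the list of 7 striatal genes, led by Pde10a, 0 of the 29 were called by edgeR, beside 0 of all genes tested (0%), and 1 had an unadjusted p under 0.05, beside 635 of all 18637.

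The 7 oligodendrocyte genes, led by the myelin gene Mbp at 2189 to 3184 CPM, had 1 called subunit gene, Grin2d, beside 239 of all genes tested (1.3%). An unadjusted p under 0.05 along this list was reached by 13 of the 29, beside 3165 of all 18637. Grin2d was at 93.2, 89.6, 108 and 101 CPM in POMC-C451Af/f replicates 1 to 4 and at 90.3, 104, 103 and 97.4 CPM in the control pools. The slope was 0.82 ± 0.16 (SE), with an adjusted p of 0.041 by edgeR's quasi-likelihood test and Benjamini-Hochberg adjustment. It was lost without any 1 POMC-C451Af/f pool, without control replicate 1 and without control replicate 3. The number called was then 0, except that Grin2a was called without control replicate 3, and it was 3 without control replicate 2.

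A list of 15 genes of hypothalamic nuclei, tested in the same way after seeing the data, ran largely opposite to the thalamus list. Its mean was 4.87, 4.99, 4.47 and 4.60 in POMC-C451Af/f replicates 1 to 4 and 5.14, 4.80, 4.96 and 4.78 in control replicates 1 to 4. With this mean 7 of the 29 tested subunit genes were called, beside 884 of all genes tested (4.74%), and 13 had an unadjusted p under 0.05, beside 3658 of all 18637. Of the 7 called genes Gabra5 alone had a positive slope, 0.55 ± 0.10 (SE), with 52.3, 54.8, 46.0 and 46.2 CPM in POMC-C451Af/f replicates 1 to 4 and 58.1, 49.1, 56.6 and 51.9 CPM in the control pools. Gabra4, Gabrb2, Gabrd, Grin2a, Grin2b and Grin2d had negative slopes, from -5.07 for Gabrd to -0.46 for Grin2d. No subunit gene was called without POMC-C451Af/f replicate 2 or without control replicate 1, and 4 were called without POMC-C451Af/f replicate 3. Of the 8 fits without 1 pool, Gabrd remained called in 3, Grin2d in 2, Gabra4 in 5 and each of the other 4 genes in 6. Without the 2 pools farthest from the median the number was 1, Gabrb2.

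**Figure D5:**
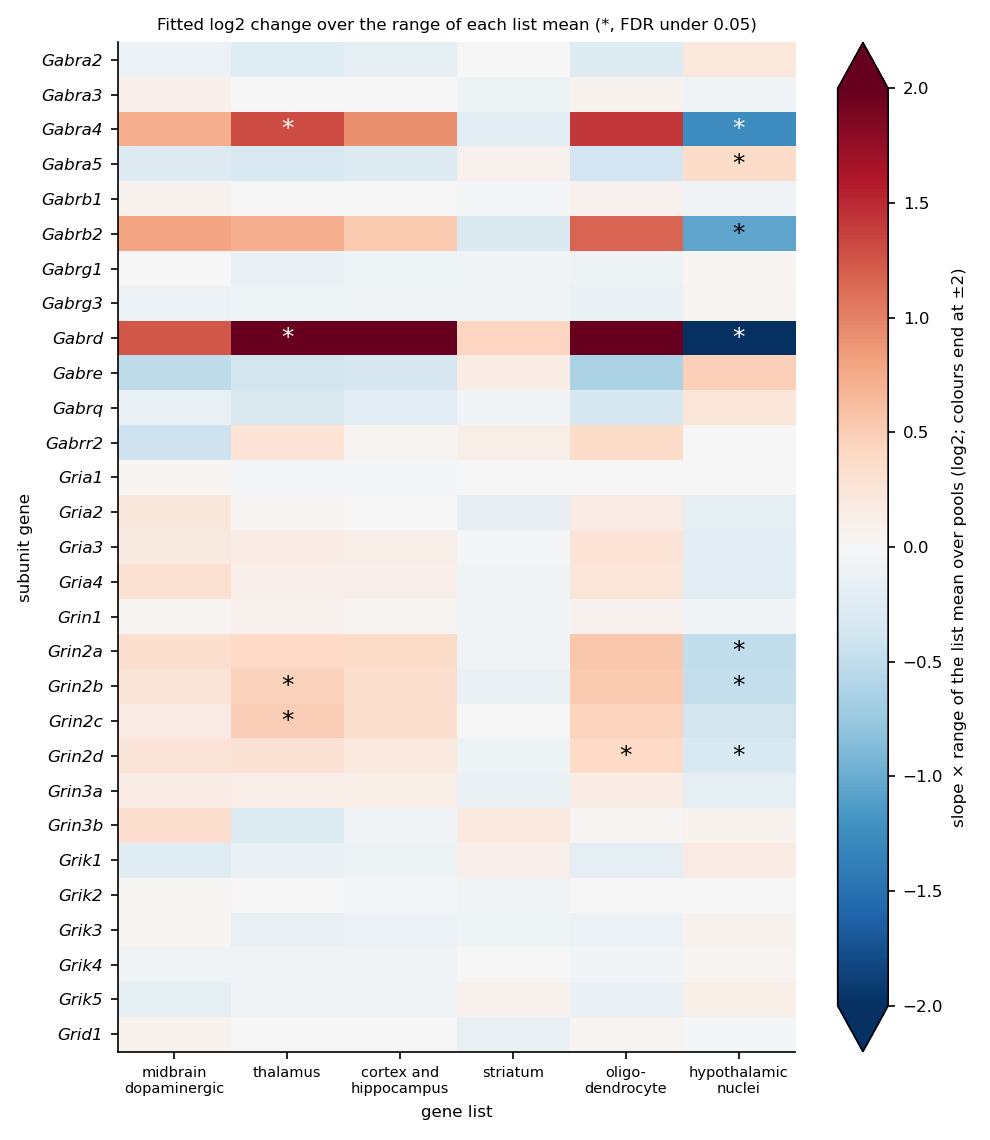
Slope of each of the 29 tested subunit genes on 6 list means, multiplied by the range of that list mean over the 8 pools, so that the colour is the fitted log2 change from the lowest to the highest pool (red up, blue down, colours end at 2 in each direction). Asterisks mark an adjusted p under 0.05; the bands of Gabrd, Gabra4 and Gabrb2 carry the strongest colours, and those of Gria1, Grin1 and Grik2 are nearly blank.

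Further lists of cells that a hypothalamic block may hold gave no called gene between genotypes by edgeR. At an unadjusted p under 0.05 stood 1 of 4 tested cerebellar genes (Car8, the most abundant), 0 of 5 pituitary genes (Prl), 0 of 6 of choroid plexus (Clic6), 3 of 7 of astrocytes (Slc1a2), 0 of 3 of oligodendrocyte precursors (Gpr17), 2 of 5 of microglia (Csf1r), 0 of 4 of endothelium (Flt1) and 0 of 5 pan-neuronal genes (Snap25). Of the 14 tested hypothalamic genes (Pmch), 2 had such a p, both lower in POMC-C451Af/f pools. Of these 14 genes, 1 had a positive log2 fold change, and their median was -0.20. Gabre had a slope of 0.72 on the mean of this list, with an unadjusted p of 0.0063 by edgeR, and was not called. The slope of Gabrq was 0.35 ± 0.18 (SE), with an unadjusted p of 0.072 by edgeR, also not called. The number was 1 of 7 for the striatal list, 3 of 7 for oligodendrocytes and 0 of 6 for cortex and hippocampus. All 7 oligodendrocyte genes had a positive log2 fold change, with a median of 0.16. On that list mean the slope of Gabre was -1.29 with an unadjusted p of 0.0024 by edgeR, not called. For Gabrq it was -0.64 with an unadjusted p of 0.04999 by edgeR, not called. Whether the hypothalamic or oligodendrocyte content of the pools lies behind the genotype differences of Gabre and Gabrq was not tested.

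The partners of these receptors were examined through 7 lists. None of their genes was called between genotypes by edgeR, and 6 of 61 had an unadjusted p under 0.05, beside the 950 of all 18637 genes tested (5.1%). Of 8 genes for GABA synthesis and transport, Slc12a2, the chloride importer, had a log2 fold change of 0.17 ± 0.07 (SE), and Slc6a11, a GABA transporter of astrocytes, was the most abundant at 915 to 986 CPM. Of 9 GABA-A partners, Plcl1, which binds the receptor's trafficking proteins, was at 0.15 ± 0.04 (SE) and Shisa7, an auxiliary subunit, at -0.11 ± 0.04 (SE). Gabarapl1 was the most abundant of these. Of 8 genes for glutamate synthesis and transport, led by Glul, the vesicular transporter gene Slc17a6 was at 0.14 ± 0.06 (SE) and the glial transporter gene Slc1a2 at 0.08 ± 0.03 (SE). Porcn, at 0.13 ± 0.04 (SE), was the 1 such gene of 14 for AMPA receptor auxiliary proteins, whose most abundant was Frrs1l. None of 5 GABA-B genes (Gabbr1 the most abundant), 5 kainate and delta receptor partners (Cbln1) and 12 scaffold genes (Dlg4) had an unadjusted p under 0.05. The median log2 fold change of the 7 lists was between -0.01 and 0.09.

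Along the thalamus list mean, 7 of these partner genes were called, all with positive slopes, beside the same 1.97% of all genes tested. They were Gabbr1 and Gabbr2 of the GABA-B receptor, Slc17a7 of glutamate transport, Shisa6 and Abhd6 among AMPA auxiliary proteins, and the scaffold genes Homer2 and Shank1. The slopes were between 0.09 for Gabbr1 and 1.54 for Slc17a7. No gene for GABA synthesis and transport, for GABA-A partners or for kainate and delta receptor partners was called along this list. Gabbr2, the subunit that couples the GABA-B receptor to its G protein, was at 315, 269, 363 and 326 CPM in POMC-C451Af/f replicates 1 to 4 and at 258, 334, 296 and 281 CPM in the control pools. Its slope of 0.23 ± 0.03 (SE) was of the size seen for Grin2c and Grin2b.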

How the data were processed

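Hypothalamic RNA of 8 pools, 4 POMC-C451Af/f and 4 control, had been sequenced from stranded poly(A) libraries. Per the submitters' processing notes and the methods of the study, the authors checked reads with FastQC 0.12.1, quantified them with Salmon 1.10 and used R 4.4 and DESeq2 1.40, on build GRCm39. The deposited table holds estimated counts per gene, not normalized between pools. A further deposited table holds the authors' own comparison (log2 fold changes, their errors and p-values) and was not used.

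For testing, these values were rounded to whole numbers. The filter was filterByExpr of edgeR 4.0.16 (R 4.3.3) with a minimum count of 10 and a minimum total of 15, scaling was by TMM, and tests were glmQLFit and glmQLFTest on genotype, alone or beside the centred mean log2(CPM + 0.5) of a marker list. Benjamini-Hochberg adjustment ran over all 18637 genes tested. The SE of a log2 fold change or slope is its absolute value over the square root of F. Floors of 3 counts cover counting error only. Each group had 4 pools of animals, so p-values measure the spread between pools. No 2 pools were duplicates within sampling noise (chi-square over its degrees of freedom at least 4.61). Both fits were tested on simulated data.

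Transcript lengths and gene positions come from GENCODE M21 (GRCm38) and were not converted to the authors' build; start windows are from RefSeq. Whether counting used strand is not given in the sources used here. Values of Grin1, Grin3b, Grin2d and Gabra5 are therefore uncertain, since 13.5%, 32.1%, 9.66% and 4.98% of their exons lie opposite another gene. Grin2a shares 15.2% of its transcript with the gene Gm7328 at 90% identity or more, and Gabre 6.36% with Grk2.

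The subunit genes and lists were chosen with earlier results of these data known. Named are the 32 subunit genes, Esr1, Slc6a3 and the most abundant gene of each list shown. So is each partner gene with an unadjusted p under 0.05, and Th because the study lists it. Cbln3, Fat2, Cdh15, Neurod1, Kiss1, Emx1, Tnnt1, Prkcd, Tcf7l2 and Lef1 were named after their values were seen. So were the partner genes called along the thalamus list. Alternatives were DESeq2 1.42.0, scaling by its size factors or by totals, dropping the filter or asking for 10 counts in each pool, a replicate block, counts not rounded, an adjusted p alone, list covariates, other transcript lengths and each pool left out.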

Additional observations from a re-analysis of the deposited data

Results flagged for a closer look

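Of 108 groups of 4 pools examined, over the 29 tested subunit genes, 3 further genes (Esr1, Pomc and Efr3b) and 22 list means, 5 had 1 pool far from the other 3, and chance flags about 1 in 20. None of the 5 was a subunit gene. In control replicate 1 the level of Pomc was 98.9 CPM, against 49.7, 50.5 and 50.8 CPM in the other control pools. In the same pool the oligodendrocyte list mean was 8.43 on the log2(CPM + 0.5) scale, against 8.63, 8.64 and 8.65. This is also the pool with the most Prl, 1013 CPM, and with the lowest levels of Gabrd (1.14 CPM), Gabra4 (31.6 CPM) and Gabrb2 (25.8 CPM). What these values have in common was not tested.

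The mean of the genes for glutamate synthesis and transport was 7.54 in control replicate 2, against 7.13, 7.18 and 7.18 in the other control pools. Slc17a7 of that list was at 47.3 CPM there and at 7.23 to 9.999 CPM in the other control pools, and Gabrd, at 17.1 CPM, was also highest there among controls. The mean of the genes for GABA synthesis and transport was 8.79 in POMC-C451Af/f replicate 4, against 8.64, 8.67 and 8.65. The choroid plexus list mean was 1.39 in POMC-C451Af/f replicate 1, against 1.67, 1.68 and 1.64.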

How the results depend on the processing

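No subunit gene was called between genotypes under any of the alternatives. Leaving out 1 pool gave 2 to 5 subunit genes with an unadjusted p under 0.05 and 9 to 16 with a positive log2 fold change. With the midbrain list mean as a covariate these numbers were 1 and 5, and the sign changed for 13 of 29 genes, Gabrd among them; the cause was not tested. The thalamus list mean, a covariate added after the data were seen, changed it for 8 of 29.

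The number of subunit genes called along a list mean depended on the model. Without genotype in the model it was 7 for the thalamus list, 3 for cortex and hippocampus and 5 for oligodendrocytes. With at least 10 counts in every pool it was 3 for cortex and hippocampus and 2 for oligodendrocytes. Leaving out 1 pool gave 2 to 4 for the thalamus list, 0 to 2 for the midbrain, 0 to 3 for cortex and hippocampus, 0 to 3 for oligodendrocytes and 0 to 8 for the hypothalamic list. Without the 2 pools farthest from the median it was 2 for the thalamus and 1 for the hypothalamic list; fewer pools entered those fits. For the other changes the cause was not tested. The striatal list gave 0 in each fit.

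Same-numbered pools did not deviate together throughout, with correlations between -0.18 and 0.24 and 2 of 4 pairs over 0.1, and 2 of 4 POMC-C451Af/f pools correlated best with their own number. With a replicate block, 4 subunit genes had an unadjusted p under 0.05 between genotypes, 5 were called along the thalamus list and 7 along the oligodendrocyte list. Grin2d, the gene called along the oligodendrocyte list in the report, was not among those 7, nor among the 5 called without genotype in the model. Along the hypothalamic list the block gave 7 called genes, without Grin2b and Grin2d.

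The leading gene of 8 of 8 classes and 10 of the 10 highest genes were kept when 1 pool was left out, except that 7 of 8 classes kept it without control replicate 1. By exon union length 9 and by median transcript length 7 of the 10 highest genes stayed among them, and the leading gene of each class did not change. Genes with few counts, Gabra6, Gabrp and Gabrr1, allow no comparison at this depth.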

Other observations

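Subunit genes that lie together in the genome differed in their spread over pools in some clusters; whether they vary together was not tested. In the cluster on chromosome 5, Gabra4 had a coefficient of variation over the 8 pools of 29.3%, against 6.38% for Gabra2, 6.17% for Gabrg1 and 3.12% for Gabrb1. In the cluster on the X chromosome it was 16.0% for Gabre, 11.1% for Gabrq and 3.90% for Gabra3, the gene between them. On chromosome 11, Gabrb2 had 25.8%, while its neighbour Gabra6 was too low to compare. On chromosome 7, Gabra5 and Gabrg3 had 8.74% and 7.74%.

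The ratio of Gabrd to Gabrg1 per length, a tonic against a gamma subunit, was 0.247, 0.113, 0.725 and 0.238 in POMC-C451Af/f replicates 1 to 4 and 0.0348, 0.569, 0.141 and 0.126 in control replicates 1 to 4. The summed level per length of the 5 listed alpha genes varied far less, between 85.9 and 91.6 CPM per kb. POMC-C451Af/f replicate 3 had the highest Gabra4 and the lowest levels of Gabra2 (111 CPM) and Gabra5 (46.0 CPM) of all pools.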
